A study of Saccharomyces cerevisiae with 8 samples.

Results

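The cytosolic ribosomal protein genes of Saccharomyces cerevisiae were followed on 8 spotted arrays that measured the response to glycine in 5 strains. They were chosen by symbol: RPL or RPS with a number and at most an A or a B, and the names RPP0, RPP1 and RPP2 of the ribosomal stalk with or without such a letter. The rule took 133 of the 5539 genes measured. RPP1 (YHR062C), 1 of these, encodes a subunit of the RNA-processing enzyme RNase P and no ribosomal protein, and it was set apart. Its log2 ratios were 0.87 and -0.52 in bas1, 0.63 and -0.43 in bas2, -0.14 in gcn4, 0.41 in shm2, and -0.21 and 0.13 in BY4741. The other 132 genes were 78 of the large and 54 of the small subunit, each with 2 spots. The RefSeq gene table held 138 symbols of this form, and 5 of them had no spot under that name and were not analysed here. RPL19B, RPS19A and RPS30A had no value on bas1 replicate 2.

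Every array compared 2 RNA samples of a single strain, taken from cultures in minimal medium plus 10 mM glycine and in minimal medium alone. Cells were harvested between steady state and early log phase. The strains were the bas1 deletion (2 arrays, replicates 1 and 2), the bas2 deletion (2 arrays, replicates 1 and 2), the gcn4 deletion (1 array), the shm2 deletion (1 array) and their parent BY4741 (2 arrays, replicates 1 and 3). Each deletion strain came from the yeast deletion set and is 1 strain, so a difference between strains is a difference between those isolates. Bas1 and Bas2 are transcription factors that act together on purine genes, Gcn4 activates amino acid synthesis genes, and SHM2 encodes a cytosolic serine hydroxymethyltransferase. For bas2 replicate 1 the title and description say bas2 but the source name says BY4741, and zap1 is named in the title of BY4741 replicate 3. A deleted gene is missing from both channels of its own arrays, so its ratio there does not check the strain. On their own arrays BAS1 stood at -0.69 and -0.39, PHO2, which encodes Bas2, at -1.04 and -0.16, and SHM2 at -0.24, while GCN4 had no value.

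A cytosolic ribosome is built from ribosomal RNA and a set of proteins, most of which yeast encodes in an A and a B copy left by an ancient duplication of the genome. Their transcripts are among the most abundant in growing yeast. The genes are transcribed together through Rap1, Fhl1, Ifh1 and Sfp1 under control of the TOR and protein kinase A pathways, which makes them a standard readout of growth conditions. Some ribosomal proteins of the large subunit reach towards the peptidyl transferase centre or line parts of the exit tunnel. Some of the small subunit lie near the mRNA and the decoding centre, and the stalk recruits the GTPase factors of translation.

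Values below are log2 channel ratios, averaged over the spots of a gene and centred so that the middle gene of each array is 0. Which culture is on top of the ratio is not stated in the sources. Below 0 probably means more transcript in glycine, because GCV1, a glycine cleavage gene whose induction by glycine is textbook knowledge, stood at -6.27 and -5.27 in BY4741. GCV1 stood at -1.17 in bas1 replicate 1, -5.45 in bas2 replicate 1, -4.46 in gcn4 and -0.20 in shm2, and it had no value on bas1 and bas2 replicate 2. Over 12630 spots, bas1 replicate 1 and BY4741 replicate 1 correlated with r = -0.304, so the direction of single arrays is not settled, all signs stand as deposited, and comparisons of bas1 are given with its sign turned as well. Empty spots numbered 45 to 2302 of 12800 on 7 arrays and 5465 on bas1 replicate 2. Array medians before centring ran from -0.78 on bas1 replicate 2 to 0.65 on BY4741 replicate 1, and centring removed them. With 1 or 2 arrays a strain, precision is set by how many arrays there are.

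The ribosomal protein genes stood above the middle of the array in gcn4, shm2 and BY4741 and on 1 of the bas2 arrays, and close to it in bas1. A ratio is a share of the RNA on the array, so less transcript per cell and more of other RNA cannot be told apart. Their median ratio was -0.044 on bas1 replicate 1 and 0.083 on bas1 replicate 2, with 59 of 132 and 72 of 129 genes above 0. In bas2 the medians were 0.031 and 0.65, with 72 and 130 of 132 genes above 0. The gcn4 array had a median of 0.88 (126 of 132 above 0) and the shm2 array 0.60 (122 of 132). In BY4741 the medians were 1.06 and 0.28, with 109 and 125 genes above 0. The replicates of bas2 and of BY4741 thus differed in the size of the shift, and those of bas1 lay on either side of 0.

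The spread among members also differed between arrays. The middle 50% of members covered 0.53 and 0.67 log2 units in bas1, 0.49 and 0.29 in bas2, 0.84 in gcn4, 0.58 in shm2, and 1.26 and 0.26 in BY4741. Over all genes the same range was 0.93 and 1.60 in bas1, 0.57 and 0.97 in bas2, 1.29 in gcn4, 0.75 in shm2, and 1.14 and 0.35 in BY4741. Members were packed more closely than all genes on 7 arrays, and BY4741 replicate 1 was the exception. On that array single members ran from -1.52 for RPL4A, whose protein lines the exit tunnel, to 3.72 for RPL39, a very small protein of the tunnel wall.

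**Figure D1:**
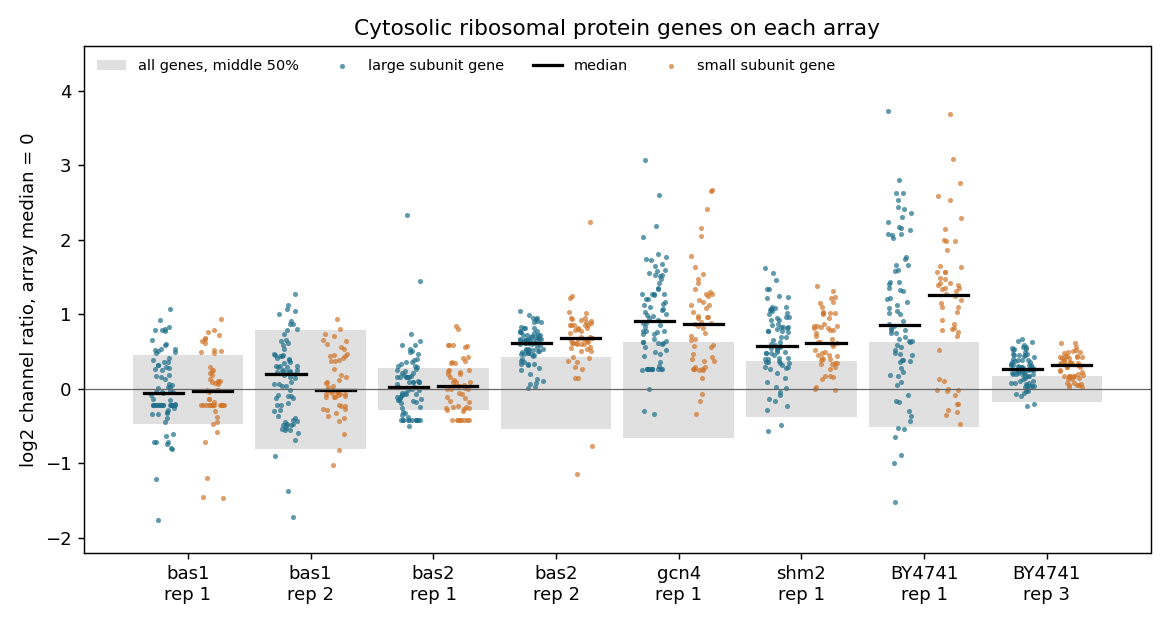
Log2 channel ratio (vertical axis, array median = 0) of each ribosomal protein gene on each array, large subunit left and small subunit right, with black bars for medians and grey boxes for the middle 50% of all genes. Most points lie above 0 on bas2 replicate 2, gcn4, shm2 and both BY4741 arrays, whereas bas1 and bas2 replicate 1 centre near 0, with medians from -0.044 to 0.083.

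Part of these values sat at 1 exact ratio. Spots with a deposited ratio within 0.003 of 1, that is equal signal in both channels, made up 24.6% of the 264 member spots on bas1 replicate 1, 18.6% on bas2 replicate 1 and 14.4% on gcn4. Over all spots of those arrays the shares were 1.47%, 1.25% and 1.39%. On the other arrays the member shares were 0% for bas1 replicate 2, 1.52% for bas2 replicate 2, 0.379% for shm2, 0.758% for BY4741 replicate 1 and 0% for BY4741 replicate 3. Both spots lay there for 29, 19 and 17 members on the first 3 arrays, for RPP2A on BY4741 replicate 1 and for 0 members on the remaining 4. After centring, these genes all read -0.22 on bas1 replicate 1, -0.41 on bas2 replicate 1 and 0.26 on gcn4, so they have no order among themselves.

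A smaller pile lay at ratios from 2.0 to 2.01, found after the values were seen. It held 14 member spots on bas1 replicate 1, 20 on bas2 replicate 1, 12 on gcn4 and 5 on BY4741 replicate 3, against 50, 58, 31 and 20 over all spots. After centring, a ratio of 2.0 reads 0.78 on bas1 replicate 1, 0.59 on bas2 replicate 1, 1.26 on gcn4 and 0.67 on BY4741 replicate 3. On bas1 replicate 2, bas2 replicate 2, shm2 and BY4741 replicate 1 the second pile held 0 member spots. Without the spots at either pile the member medians were 0.082 and 0.086 in bas1, 0.084 and 0.66 in bas2, 0.98 in gcn4, 0.60 in shm2, and 1.08 and 0.26 in BY4741, over 100 to 132 members an array. These medians kept the order of the arrays from gcn4 and BY4741 replicate 1 at the top to bas1 and bas2 replicate 1 at the bottom. Channel signals were not used here, and the part of the piles in the results was not tested.

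**Figure D2:**
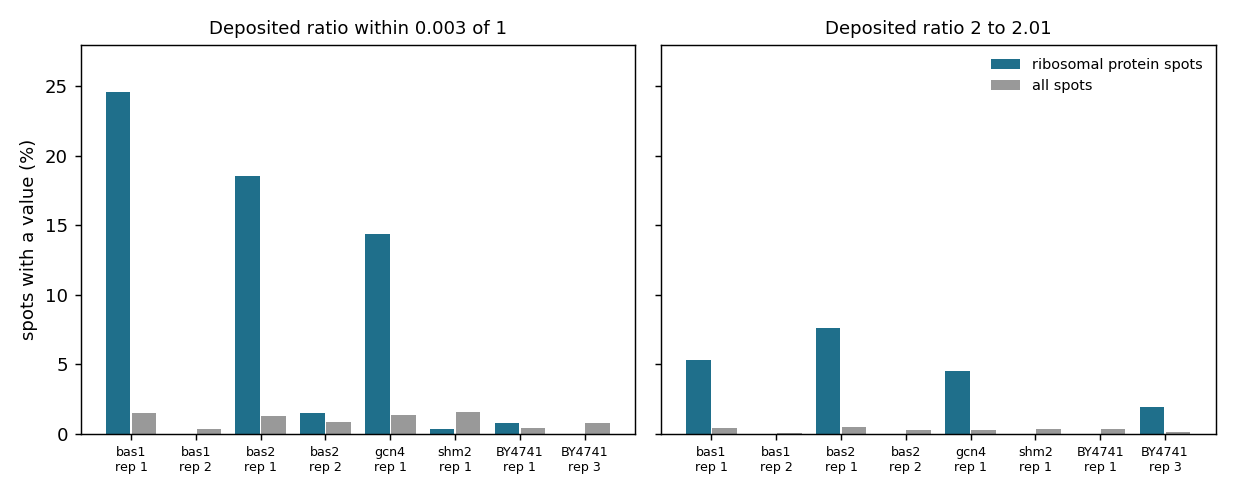
Share of spots with a value (%) whose deposited channel ratio lay within 0.003 of 1 (left) or from 2.0 to 2.01 (right) on each array, for spots of ribosomal protein genes (blue) and all spots (grey). Bars for ribosomal protein genes stand out on bas1 replicate 1, bas2 replicate 1 and gcn4, at 24.6%, 18.6% and 14.4% in the left panel.

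No ribosomal protein gene passed the test in any strain or strain difference. limma tested the means of strains and the differences between them over all genes with a value, two-sided, with Benjamini-Hochberg adjustment and a threshold of 0.05. For the mean over the 5 strains 0 of 129 members and 0 of 3168 genes passed (0.0%). Likewise 0 members passed in bas1 (0.0% of 3444 genes), bas2 (0.0% of 4897), gcn4 (0.0% of 5378), shm2 (0.0% of 5469) and BY4741 (0.0% of 5512). The differences bas1 minus BY4741, bas2 minus BY4741, gcn4 minus BY4741, shm2 minus BY4741 and bas1 minus bas2 also had 0 members and 0.0% of genes past the threshold. The smallest adjusted p of a member in limma was 0.218 for the mean over strains, shared by RPL12A, RPL17A, RPL17B, RPS9B and RPS16B, which were singled out after their values were seen.

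At an unadjusted limma p under 0.05, 68 of the 129 members passed for the mean over strains, all 68 with a positive mean, against 363 positive genes among 3168, or 11.5%. The median of the members' means over strains was 0.55, against 0.061 over all genes tested, and 126 of the 129 means were above 0. Within strains the unadjusted counts were 2 of 129 members in bas1 and, of 132 members, 3 in bas2, 20 in gcn4, 10 in shm2 and 12 in BY4741, again all positive. The share of all tested genes with a positive mean at that p was 9.96% in bas1, 2.59% in bas2, 4.15% in gcn4, 2.1% in shm2 and 1.67% in BY4741. The members' counts in bas1 and bas2 were thus under this background. Ratios above 0 on all 8 arrays were found for 20 of 129 members, against 4.73% of all genes. These 20 were 13 of the large and 7 of the small subunit, among them RPL3, RPL30, RPS13 and both copies of RPL1, RPL16, RPL17 and RPS9, named here after their values were seen. For 4 of the 20 a spot was at a ratio of 1 on at least 1 array, and without such spots 16 of 79 members were above 0 on all 8 arrays, against 4.7% of all genes. These signs are relative to the middle gene. A deposited ratio of 1 reads 0.78 on bas1 replicate 2 and 0.56 on bas2 replicate 2. RPL30, at 0.31 and 0.36 there, lay below it on both. With the slide number series of the titles as a block, 11 members instead of 68 had an unadjusted limma p under 0.05, and without centring 3. The count thus changed with how arrays were put on 1 scale and grouped.

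The medians of the subunits lay close together on 6 of the 8 arrays, all but bas1 replicate 2 and BY4741 replicate 1. The large subunit median minus the small subunit median was -0.020 and 0.22 in bas1, -0.0065 and -0.060 in bas2, 0.029 in gcn4, -0.037 in shm2, and -0.41 and -0.064 in BY4741. On BY4741 replicate 1 the large subunit had a median of 0.85 and the small subunit 1.26. On BY4741 replicate 3 the medians were 0.26 and 0.32, a smaller gap in the same direction. On bas1 replicate 2 the medians were 0.20 and -0.022, and on bas1 replicate 1 they were -0.053 and -0.033. Large and small subunit members overlapped across most of their range on every array.

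The 5 stalk genes lay on opposite sides of 0 in the BY4741 replicates. RPP0 binds ribosomal RNA and anchors pairs of the acidic P1 and P2 proteins, which contact elongation factors. RPP0 (YLR340W) stood at 0.028 and 1.04 in bas1, 0.31 and 0.75 in bas2, 0.26 in gcn4, 1.23 in shm2, and -1.0 and 0.39 in BY4741. All 5 stalk genes were below 0 on BY4741 replicate 1, with a median of -0.54, and all 5 were above 0 on BY4741 replicate 3, with a median of 0.28. A deposited ratio of 1 reads -0.65 on BY4741 replicate 1 after centring, and of the 5 only RPP0 lay below that.

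Among the acidic stalk proteins, RPP1A (YDL081C) stood at 0.65 and 0.40 in bas1, 0.22 and 0.60 in bas2, 0.83 in gcn4, 0.78 in shm2, and -0.43 and 0.17 in BY4741. RPP1B (YDL130W) had ratios of 0.92 and 0.16 in bas1, 0.18 and 0.65 in bas2, 0.26 in gcn4, -0.23 in shm2, and -0.54 and 0.25 in BY4741. Both P1 genes were thus below 0 on BY4741 replicate 1 and above 0 on both arrays of bas1 and of bas2. These signs are relative to the middle gene of the array. A deposited ratio of 1 reads -0.65 on BY4741 replicate 1, where both P1 genes lay above it. It reads 0.78 on bas1 replicate 2, where both lay below it. RPP2A (YOL039W) stood at -0.22 and 0.46 in bas1, -0.41 and 0.91 in bas2, 0.26 in gcn4, 0.37 in shm2, and -0.65 and 0.46 in BY4741. Both of its spots lay at a ratio of 1 on bas1 replicate 1, bas2 replicate 1, gcn4 and BY4741 replicate 1. RPP2B (YDR382W) stood at 0.17 and 0.25 in bas1, 0.39 and 0.52 in bas2, 0.26 in gcn4, 0.39 in shm2, and -0.16 and 0.28 in BY4741. On gcn4, RPP0, RPP1B, RPP2A and RPP2B all had both spots at a ratio of 1, so their equal values of 0.26 there carry no order. The limma mean over strains was 0.45 ± 0.24 (SE) for RPP0, and from 0.17 for RPP1B to 0.48 for RPP1A among the acidic proteins.

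In the large subunit the 5 highest means over strains belonged to RPL25, RPL20A, RPL37B, RPL34A and RPL38. RPL25 (YOL127W) sits at the exit of the peptide tunnel, where the signal recognition particle docks, and stood at -0.22 and -0.092 in bas1, 0.59 and 0.82 in bas2, 1.77 in gcn4, 1.10 in shm2, and 2.17 and 0.20 in BY4741. RPL20A (YMR242C) stood at -0.088 and 0.30 in bas1, 0.092 and 0.71 in bas2, 2.03 in gcn4, 0.95 in shm2, and 1.77 and 0.33 in BY4741. RPL34A (YER056C-A) stood at -0.16 and -0.48 in bas1, 0.47 and 0.70 in bas2, 1.13 in gcn4, 1.25 in shm2, and 2.15 and 0.53 in BY4741. All 3 genes were highest on gcn4 or BY4741 replicate 1 and lowest in bas1. RPL38 (YLR325C), a small protein of the same subunit, stood at -0.71 and -0.68 in bas1, 0.64 and 0.67 in bas2, 2.60 in gcn4, 0.36 in shm2, and 2.06 and 0.0077 in BY4741. RPL37B (YDR500C) differed from these in having its highest value in bas2, with 0.79 and -0.55 in bas1, 2.33 and 0.95 in bas2, 1.27 in gcn4, 0.52 in shm2, and 1.35 and 0.35 in BY4741. Their means over strains lay between 0.79 ± 0.27 (SE) for RPL38 and 0.92 ± 0.27 (SE) for RPL25, with limma adjusted p from 0.243 to 0.272. Both spots of RPL25 read a ratio of 1 on bas1 replicate 1 and a ratio of the second pile on bas2 replicate 1.

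The 5 lowest means of the large subunit were those of RPL43B, RPL4A, RPL41B, RPL2A and RPP1B, and 3 of the 5 were below 0. RPL4A (YBR031W) had ratios of 1.08 and 0.91 in bas1, 0.50 and 0.28 in bas2, -0.29 in gcn4, -0.49 in shm2, and -1.52 and 0.031 in BY4741. It was highest in bas1 and lowest on BY4741 replicate 1, the opposite of RPL25. RPL2A (YFR031C-A), whose protein lies close to the peptidyl transferase centre, stood at 0.51 and 0.46 in bas1, -0.069 and 0.061 in bas2, 0.26 in gcn4, 0.017 in shm2, and -0.53 and 0.069 in BY4741. RPL43B (YJR094W-A) stood at 0.18 and 0.20 in bas1, 0.20 and 0.25 in bas2, -0.33 in gcn4, -0.57 in shm2, and 0.18 and -0.067 in BY4741. RPL41B (YDL133C-A), which encodes a peptide at the interface of the subunits and is among the smallest proteins of yeast, stood at 0.53 and -1.72 in bas1, 0.23 and 0.34 in bas2, 0.30 in gcn4, -0.079 in shm2, and -0.30 and 0.27 in BY4741. Its bas1 replicates were on opposite sides of 0, more than 2 log2 units apart. Means over strains ran from -0.086 ± 0.14 (SE) for RPL43B to 0.17 ± 0.19 (SE) for RPP1B, all within 1 standard error of 0 by limma.

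In the small subunit the highest means were those of RPS18A, RPS30B, RPS26B, RPS10B and RPS24A. RPS18A (YDR450W), a protein of the head of the subunit, stood at -0.30 and -0.22 in bas1, 0.00056 and 2.23 in bas2, 2.05 in gcn4, 0.74 in shm2, and 2.53 and 0.42 in BY4741. RPS30B (YOR182C) stood at -1.47 and -0.82 in bas1, -0.29 and 0.86 in bas2, 2.41 in gcn4, 1.38 in shm2, and 3.68 and 0.070 in BY4741. RPS10B (YMR230W), which lies in the beak of the subunit, had ratios of -1.20 and -0.61 in bas1, -0.24 and 0.88 in bas2, 2.66 in gcn4, 0.39 in shm2, and 2.76 and 0.34 in BY4741. All 3 were below 0 on both bas1 arrays and above 2 on gcn4 and on BY4741 replicate 1. RPS26B (YER131W), near the exit of the mRNA channel, stood at 0.29 and -0.37 in bas1, 0.57 and 0.90 in bas2, 0.95 in gcn4, 1.22 in shm2, and 2.28 and 0.33 in BY4741. RPS24A (YER074W) stood at 0.68 and -0.071 in bas1, 0.038 and 0.81 in bas2, 0.83 in gcn4, 1.23 in shm2, and 1.56 and 0.52 in BY4741. Means over strains ran from 0.77 ± 0.22 (SE) for RPS24A to 1.02 ± 0.38 (SE) for RPS18A, with limma adjusted p from 0.248 to 0.359.

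The lowest means of the small subunit were all above 0 and belonged to RPS23B, RPS14B, RPS31, RPS11B and RPS4B. RPS23B (YPR132W), whose protein is part of the decoding centre, stood at 0.25 and -0.086 in bas1, -0.0068 and 0.85 in bas2, -0.34 in gcn4, 0.45 in shm2, and -0.29 and 0.13 in BY4741. RPS11B (YBR048W) stood at 0.94 and -0.11 in bas1, 0.59 and 0.26 in bas2, -0.073 in gcn4, 0.26 in shm2, and -0.21 and 0.16 in BY4741. RPS4B (YHR203C) stood at 0.10 and 0.37 in bas1, 0.34 and 0.51 in bas2, 0.26 in gcn4, 0.18 in shm2, and -0.0094 and 0.24 in BY4741. Each of the 3 had a ratio below 0 on BY4741 replicate 1, where the median of the small subunit was 1.26. Means over strains ran from 0.11 ± 0.18 (SE) for RPS23B to 0.24 ± 0.14 (SE) for RPS4B. With both bas1 arrays turned in sign, 5 of the 10 highest and 8 of the 10 lowest genes of the 2 subunits kept their place in these lists. RPL39 and RPL27B then entered the highest of the large subunit, at 1.28 and 0.98, with RPL35A at 0.93, RPL27B being outside the naming rule and named after its value was seen.

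**Figure D3:**
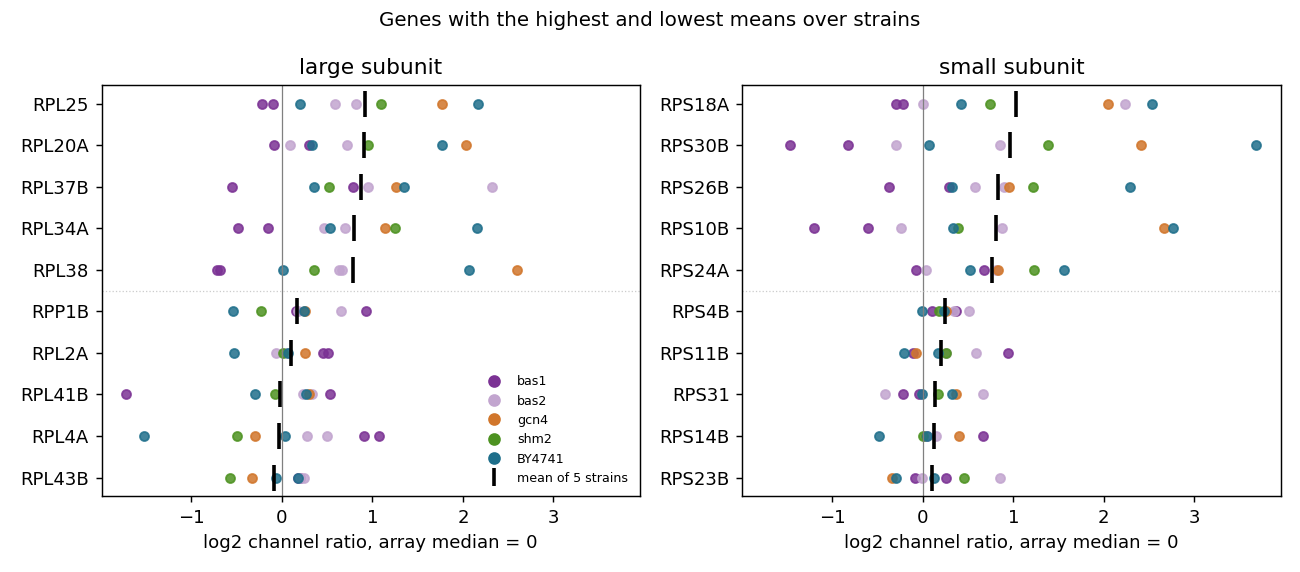
Log2 channel ratios (horizontal axis, array median = 0) on all arrays, coloured by strain, of the 5 genes with the highest (above the dotted line) and the 5 with the lowest (below it) mean over strains in each subunit, with a black tick for that mean. Most genes of the upper rows spread from bas1 on the left to gcn4 and BY4741 on the right, RPL37B being an exception, and RPL4A in the lower rows runs the other way.

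Proteins near the catalytic core and of assembly were described next. RPL3 (YOR063W) reaches to the peptidyl transferase centre and stood at 0.41 and 1.27 in bas1, 0.30 and 0.77 in bas2, 0.26 in gcn4, 0.48 in shm2, and 0.28 and 0.071 in BY4741. All 8 ratios were above 0, and the gcn4 value was a ratio of 1 in both spots. RPL10 (YLR075W) joins the large subunit last, in the cytoplasm, and stood at -0.22 and 0.62 in bas1, -0.35 and 0.46 in bas2, 0.26 in gcn4, 1.34 in shm2, and 0.63 and -0.033 in BY4741. It was highest in shm2, and both of its spots lay at a ratio of 1 on bas1 replicate 1 and on gcn4. RPL39 (YJL189W) stood at -1.76 and -1.38 in bas1, -0.15 and 0.54 in bas2, 3.08 in gcn4, -0.28 in shm2, and 3.72 and -0.027 in BY4741. It held the highest member ratio on gcn4 and on BY4741 replicate 1 and the lowest on bas1 replicate 1, while bas2 replicate 1, shm2 and BY4741 replicate 3 lay near 0.

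Some ribosomal proteins act on their own transcripts. RPL30 (YGL030W) blocks splicing of its own pre-mRNA and stood at 0.48 and 0.31 in bas1, 0.49 and 0.36 in bas2, 0.97 in gcn4, 0.45 in shm2, and 0.38 and 0.27 in BY4741, above the middle gene on all 8 arrays. RPL22B (YFL034C-A), which is spliced less when Rpl22 protein is abundant, stood at 0.13 and -0.59 in bas1, 1.44 and 0.075 in bas2, 1.56 in gcn4, 0.14 in shm2, and 1.33 and 0.055 in BY4741. The other copy, RPL22A (YLR061W), stood at -0.039 and 0.14 in bas1, -0.18 and 0.81 in bas2, 0.61 in gcn4, 0.79 in shm2, and 1.31 and 0.47 in BY4741. The copies thus differed on most arrays, RPL22B being the higher on bas2 replicate 1 and gcn4 and RPL22A on bas1 replicate 2, bas2 replicate 2, shm2 and BY4741 replicate 3. RPS14B (YJL191W), whose transcript is bound by its own protein, stood at 0.66 and 0.031 in bas1, 0.045 and 0.14 in bas2, 0.40 in gcn4, -0.0010 in shm2, and -0.48 and 0.051 in BY4741, and its copy RPS14A was not analysed here.

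RPL40A, RPL40B and RPS31 encode fusions of ubiquitin to a ribosomal protein. RPL40A (YIL148W) stood at -0.22 and 0.25 in bas1, -0.25 and 0.78 in bas2, 0.85 in gcn4, 0.35 in shm2, and 0.46 and 0.26 in BY4741. RPL40B (YKR094C) stood at 0.31 and -0.31 in bas1, 0.021 and 0.62 in bas2, 1.75 in gcn4, 0.27 in shm2, and 0.82 and 0.21 in BY4741. RPS31 (YLR167W) stood at -0.22 and -0.039 in bas1, -0.42 and 0.67 in bas2, 0.37 in gcn4, 0.17 in shm2, and -0.011 and 0.32 in BY4741. All 3 were above 0 on bas2 replicate 2, gcn4, shm2 and BY4741 replicate 3. RPS31 had both spots at a ratio of 1 on bas1 replicate 1 and bas2 replicate 1, and RPL40A on bas1 replicate 1. Their means over strains were 0.37 ± 0.19 (SE), 0.57 ± 0.18 (SE) and 0.14 ± 0.19 (SE) in limma.

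The A and B copies of a gene did not differ in 1 direction. Both copies were measured for 56 families, 53 of them on all 8 arrays. The median of A minus B was -0.0029 and 0.049 in bas1, -0.071 and -0.042 in bas2, -0.023 in gcn4, 0.082 in shm2, and -0.048 and 0.011 in BY4741. A was the higher copy in 22 to 32 families on each array. RPL1A was above RPL1B on all 8 arrays, by 0.020 to 0.36, and RPL23A was below RPL23B on all 8, with differences from -0.58 to -0.0050, a pair singled out after its values were seen. Copies of a family can be nearly identical in sequence and could share signal on a spotted probe, so the 2 values of a family are uncertain as separate measurements, and how far probes told copies apart was not tested.

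Copies of a family stood closer together than members of different families on all 8 arrays. The median absolute A minus B difference was 0.26 and 0.21 in bas1, 0.24 and 0.20 in bas2, 0.33 in gcn4, 0.38 in shm2, and 0.23 and 0.15 in BY4741. Between members of different families the median absolute difference was 0.47 and 0.47 in bas1, 0.33 and 0.24 in bas2, 0.59 in gcn4, 0.41 in shm2, and 0.95 and 0.18 in BY4741. The 2 spots of a member differed by a median of 0.040 to 0.083. A and B thus lay further apart than the spots of a gene on every array, and BY4741 replicate 1 had the widest gap between families and copies. Across families, A and B correlated with r = 0.55 and 0.62 in bas1, -0.0041 and -0.034 in bas2, 0.50 in gcn4, 0.22 in shm2, and 0.64 and 0.14 in BY4741. These correlations run over 53 or 56 families of an array, which share its 2 RNA samples, and describe that array.

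**Figure D4:**
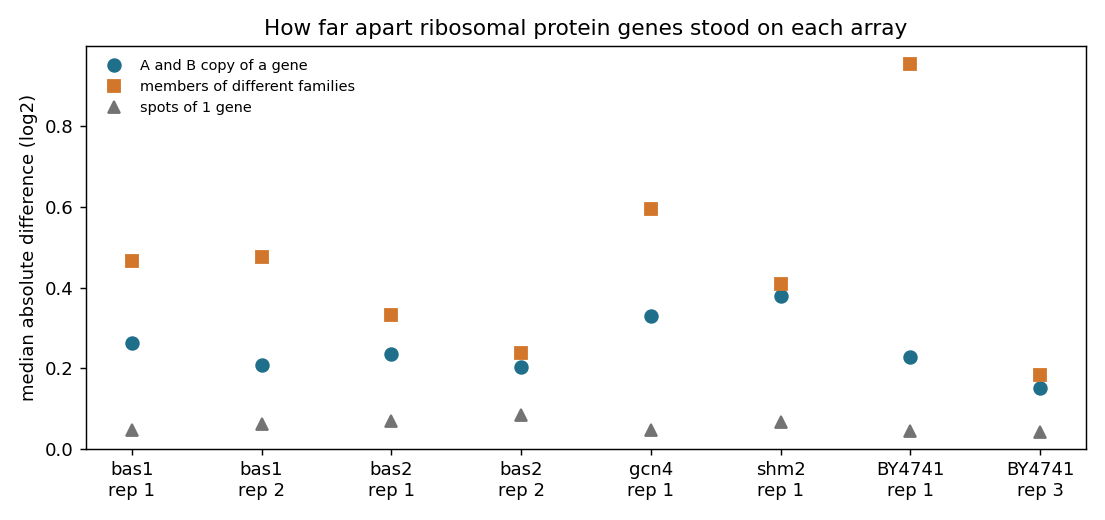
Median absolute difference in log2 ratio on each array between the A and B copy of a gene (circles), between members of different families (squares) and between the spots of 1 gene (triangles). Circles lie below squares on all 8 arrays, by most on BY4741 replicate 1 (0.23 against 0.95) and by least on shm2 (0.38 against 0.41).

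The largest mean absolute difference between copies with all 16 values was that of RPL41, RPL22, RPL37, RPS23 and RPL43, in that order. For RPL41, A minus B was -0.97 and 1.18 in bas1, -0.65 and 0.70 in bas2, 0.85 in gcn4, -0.083 in shm2, and 3.10 and -0.37 in BY4741. RPL41A (YDL184C) alone stood at 2.81 on BY4741 replicate 1, where RPL41B stood at -0.30. On bas2 replicate 1 both spots of RPL41A lay at a ratio of 1. For RPL37, the difference was -1.0 and 0.47 in bas1, -2.71 and -0.049 in bas2, 0.00072 in gcn4, 0.40 in shm2, and -0.13 and -0.038 in BY4741. The -1.0 of RPL37 on bas1 replicate 1 was a ratio of 1 for RPL37A (YLR185W) against a ratio of the second pile for RPL37B, in both spots of each. On gcn4 both copies had both spots in the second pile.

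For RPS23, A minus B was -0.47 and 0.18 in bas1, -0.41 and 0.0093 in bas2, 1.05 in gcn4, 0.12 in shm2, and 2.28 and 0.22 in BY4741. On bas1 replicate 1 and bas2 replicate 1 the A copy read a ratio of 1 in both spots. RPS23A (YGR118W) stood at 1.99 on BY4741 replicate 1, where RPS23B stood at -0.29. For RPL43, the difference was -0.40 and -0.22 in bas1, -0.053 and 0.40 in bas2, 0.59 in gcn4, 1.50 in shm2, and 0.66 and 0.70 in BY4741. RPL43A (YPR043W) was the higher copy on both arrays of BY4741, on gcn4, on shm2 and on bas2 replicate 2, and the lower in bas1 and on bas2 replicate 1. Its values on bas1 replicate 1 and gcn4 were a ratio of 1 in both spots. RPS30 and RPS19 lacked a value and were singled out after their values were seen: RPS30A minus RPS30B reached -3.57 on BY4741 replicate 1, and RPS19A lay below RPS19B on all 7 arrays, by 0.21 to 1.78.

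The copies that stayed closest were those of RPL35, RPL15, RPL14, RPL1 and RPS10. For RPL35, at the tunnel exit, A minus B was 0.095 and -0.10 in bas1, -0.077 and 0.068 in bas2, -0.16 in gcn4, 0.27 in shm2, and 0.066 and -0.14 in BY4741. RPS10A (YOR293W) stood at -1.45 and -0.39 in bas1, -0.30 and 0.79 in bas2, 2.65 in gcn4, 0.13 in shm2, and 3.09 and 0.15 in BY4741, and RPS10A minus RPS10B stayed between -0.27 and 0.33. Both copies of RPS10 were thus far below 0 on bas1 replicate 1 and far above 0 on gcn4 and BY4741 replicate 1, within 0.33 of each other on every array. RPL15A (YLR029C) and RPL15B (YMR121C) both read a ratio of 1 in every spot on bas1 replicate 1 and on bas2 replicate 1, so their equality there has no meaning for the copies. RPL14A minus RPL14B lay between -0.27 and 0.20.

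Within bas1, 44 of 129 members were above 0 on both arrays and 43 below 0 on both, against 35.7% and 25.3% of all genes. Of the 43, 13 had a ratio of 1 on bas1 replicate 1, which reads below 0 through centring alone. Values between -0.22 and 0 on that array are also below 0 through centring alone, and the next counts keep them. Without spots at a ratio of 1, 43 of 100 members were above 0 on both arrays and 29 below, against 36.1% and 25.4% of all genes. The highest of 1 sign were RPL4A, RPL4B and RPL3, and the lowest were RPL39, RPS30B and RPS10A. RPL4B (YDR012W), the other copy of the tunnel protein, stood at 0.80 and 1.07 in bas1. Within bas2, 72 of 132 members were above 0 on both arrays and 2 below, against 31.4% and 29.1% of all genes. RPL37B, RPS18A and RPS9B were the highest there. RPS9B (YBR189W) stood at 0.80 and 0.93 in bas2, and the 2 members below 0 were RPS19A (YOL121C), at -0.23 and -1.15, and RPS30A (YLR287C-A), at -0.26 and -0.77. A deposited ratio of 1 reads -0.41 on bas2 replicate 1, so both were below 0 on that array through centring alone. The limma mean of RPL37B in bas2 was 1.64 ± 0.53 (SE), with an adjusted p of 0.78.

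On the gcn4 array 56 of 132 members reached 1 or more, against 13.2% of all genes, led by RPL39 at 3.08, RPS10B at 2.66 and RPS10A at 2.65. The lowest there were RPS23B, RPL43B and RPL4A, from -0.34 to -0.29. On the shm2 array 29 of 132 members reached 1 or more, against 5.72% of all genes. RPL16A (YIL133C) led there at 1.61, followed by RPL20B (YOR312C) at 1.55 and RPL17A (YKL180W), a protein at the tunnel exit, at 1.46. RPL43B, RPL4A and RPL39 were the lowest in shm2, from -0.57 to -0.28. In BY4741 102 of 132 members were above 0 on both arrays and 0 below on both, against 32.1% and 32.2% of all genes, while 0 reached 1 on both, against 0.363%. Among members above 0 on both arrays, RPS30B, RPS10A and RPS10B had the highest means of BY4741, but each rested on replicate 1: they stood at 3.68, 3.09 and 2.76 there and at 0.070, 0.15 and 0.34 on replicate 3.

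Set against BY4741, most members had lower ratios in bas1, with none past the adjusted threshold. The median over 129 members of bas1 minus BY4741 was -0.63, against 0.11 over all genes tested. The member median of BY4741 itself was 1.06 on replicate 1 and 0.28 on replicate 3. For 66 members every bas1 array lay below every BY4741 array and for 15 above, against 22.4% and 31.4% of all genes. Among members whose arrays did not overlap, RPL39 had the lowest difference, -3.42 ± 1.23 (SE), followed by RPS30B at -3.02 ± 1.23 (SE) and RPS10A at -2.54 ± 1.08 (SE). RPL4A had the highest at 1.74 ± 0.60 (SE), followed by RPL7A (YGL076C) and RPL2B (YIL018W), at 0.86 and 0.79. In BY4741, replicates 1 and 3, RPL39 stood at 3.72 and -0.027, RPS30B at 3.68 and 0.070, and RPS10A at 3.09 and 0.15. RPL4A stood at -1.52 and 0.031 there, so the size of these differences depended on which BY4741 array was used. The limma adjusted p of RPL39 and RPL4A was 0.338, the smallest of any member in this comparison. With both bas1 arrays turned in sign, the median was -0.73, with 74 members below every BY4741 array and 0 above, against 24.0% and 14.5% of all genes. Every bas1 array was below 0 and every BY4741 array above 0 for 39 of 129 members, against 10.1% of all genes, and the reverse held for 0, against 12.0%. Of the 39, 12 had a spot at a ratio of 1 on at least 1 of these arrays. Others, RPL34A among them, lay on bas1 replicate 1 between the centred value of a ratio of 1 and 0. The bas1 member median was 0.049 as deposited and -0.049 turned. So close to 0, turning the sign could move the member median of the difference little, and it is no check of that difference. RPL39, RPS30B and RPS10A lay below 0 in bas1 as deposited and above 0 with the sign turned.

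The bas2 minus BY4741 median was -0.33 over 132 members, against -0.081 over all genes. Every bas2 array lay below every BY4741 array for 9 members and above for 12, against 20.8% and 19.8% of all genes. The lowest of these were RPL33B (YOR234C) at -0.90, RPS25A (YGR027C) at -0.79 and RPL12B (YDR418W) at -0.75, and the highest RPL4A at 1.13, RPL7A at 0.58 and RPP1A at 0.54. On bas2 replicate 1 RPS25A and RPL12B had both spots at a ratio of 1, which reads below 0 there through centring alone. Every bas2 array was below 0 and every BY4741 array above 0 for 1 of 132 members, RPS30A, and the reverse held for 0, against 6.61% and 5.93% of all genes. RPS30A stood at -0.26 on bas2 replicate 1, above the -0.41 of a ratio of 1, so its sign there too comes from centring. Without bas2 replicate 1, whose source name gives BY4741, bas2 rests on replicate 2, where 130 members were above 0.

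The gcn4 minus BY4741 median was 0.29, against -0.012 over all genes, with the gcn4 array below both BY4741 arrays for 8 members and above both for 47, against 33.7% and 29.4% of all genes. RPL38, RPL40B and RPS3 had the highest such differences, at 1.56, 1.23 and 1.14. RPS3 (YNL178W), at the entry of the mRNA channel, stood at 1.78 in gcn4, against 1.09 and 0.19 in BY4741. RPS25B (YLR333C) and both copies of RPL43 had the lowest, from -0.54 to -0.39, and RPS25B stood at 0.29 in gcn4, against 1.20 and 0.47 in BY4741. The gcn4 value of RPL43A was a ratio of 1 in both spots. The shm2 minus BY4741 median was -0.047, against -0.0020 over all genes, with 17 members below and 41 above both BY4741 arrays, against 36.7% and 36.6% of all genes. RPP0, RPS4A and RPL16A had the highest such differences, from 1.53 to 1.13, and RPL39, RPL41A and RPS10A the lowest, from -2.13 to -1.49. BY4741 stood at -1.0 and 0.39 for RPP0, 3.72 and -0.027 for RPL39, 2.81 and -0.098 for RPL41A, and 3.09 and 0.15 for RPS10A. RPS4A (YJR145C) stood at 1.16 in shm2, against -0.31 and 0.25 in BY4741. All of these differences share the BY4741 arrays.

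For bas1 minus bas2, which shares no array with BY4741, the median was -0.26 over 129 members, against -0.025 over all genes. Every bas1 array lay below every bas2 array for 41 members and above for 8, against 19.7% and 18.6% of all genes. The lowest were RPL39 at -1.77, RPL37B at -1.52 and RPS30B at -1.43, and the highest RPL4A at 0.61, RPL8B (YLL045C) at 0.59 and RPL4B at 0.58. Both spots of RPL8B lay at a ratio of 1 on bas2 replicate 1, and both of RPL37B in the second pile on bas1 replicate 1. Every bas1 array was below 0 and every bas2 array above 0 for 16 of 129 members and the reverse for 0, against 5.43% and 2.94% of all genes, and 5 of the 16 had a spot at a ratio of 1 on at least 1 of these arrays. Others, such as RPL33B and RPL34A, lay on bas1 replicate 1 between the centred value of a ratio of 1 and 0. With bas1 turned, the median was -0.42, with 59 members below and 3 above, against 34.5% and 21.6%. The titles hold slide numbers that were read as 2 series and treated as a possible slide batch. Series 1 was taken to hold replicate 1 of bas1 and bas2, gcn4 and both BY4741 arrays, and series 2 replicate 2 of bas1 and bas2, and shm2. BY4741 replicate 3 shares its first digits with series 1. Its number is shorter than the others and its title ends in ss, as those of series 2 do, so its place is uncertain. The medians against BY4741 within series 1 and the count with the series as a block rest on it. Within series 1 the median bas1 minus BY4741 was -0.64, bas2 minus BY4741 -0.58 and gcn4 minus BY4741 0.29. Within series 1 bas1 minus bas2 was 0.031, and within series 2 it was -0.45, so the lower value of bas1 against bas2 did not hold in both. The medians over all genes were 0.029 within series 1 and -0.15 within series 2. With the arrays placed in this way, shm2 has no BY4741 array in its series.

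BY4741 replicate 1 resembled the gcn4 array more than its own replicate. Over 132 members, BY4741 replicate 1 correlated with gcn4 at r = 0.77, with bas1 replicate 1 at -0.66 and, over 129 members, with bas1 replicate 2 at -0.62. With its own replicate 3 the value was -0.017. The bas1 replicates correlated at 0.46 over 129 members and the bas2 replicates at 0.093 over 132. Over all genes the same pairs gave 0.64 for BY4741 replicate 1 with gcn4, -0.35 with bas1 replicate 1, -0.22 with bas1 replicate 2 and 0.39 with BY4741 replicate 3. Members are not independent points, since 112 of them belong to families with an A and a B copy. Without the spots at either pile, the member values were 0.75 with gcn4, -0.72 and -0.62 with the bas1 replicates and 0.0056 with BY4741 replicate 3. RPL39, RPS30B and RPS10A stood at 1 end of this pattern, high on BY4741 replicate 1 and gcn4 and low in bas1, and RPL4A at the other.

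**Figure D5:**
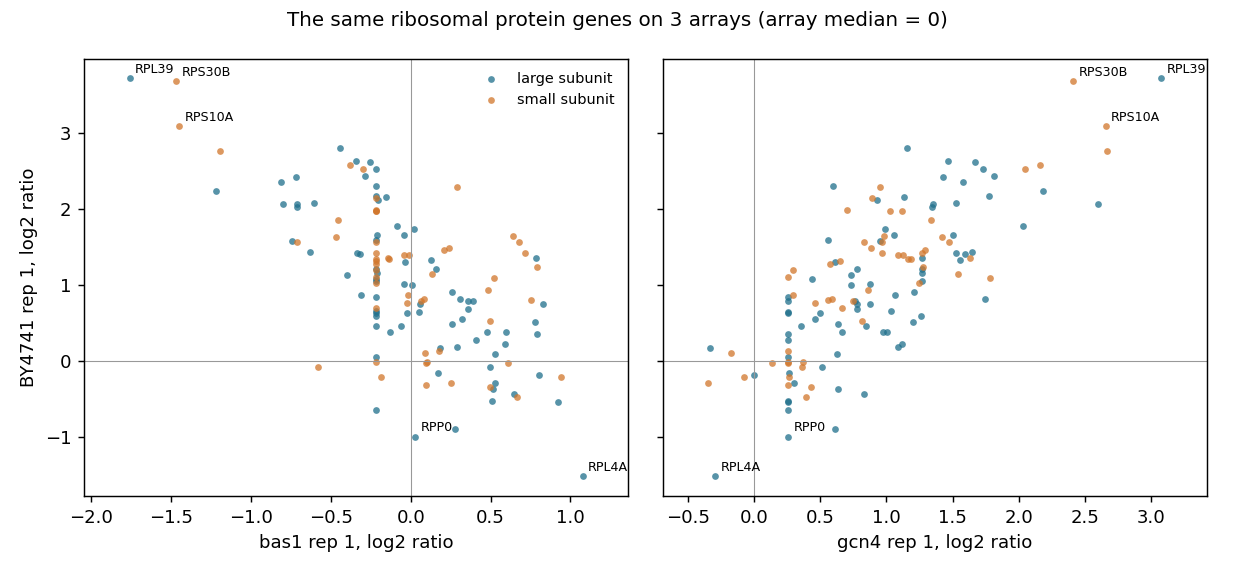
Log2 channel ratios (array median = 0) of the ribosomal protein genes on BY4741 replicate 1 (vertical axes) against bas1 replicate 1 (left) and gcn4 (right), by subunit. The points fall from upper left to lower right in the left panel (r = -0.66) and rise to the right in the right panel (r = 0.77), and the vertical columns of points at -0.22 and 0.26 are genes at a deposited ratio of 1.

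Gene length was set beside these levels. With a curve of the ratio on gene length removed from each array, the member medians were 0.055 and 0.25 in bas1, -0.036 and 0.61 in bas2, 0.50 in gcn4, 0.58 in shm2, and 0.76 and 0.23 in BY4741. They were thus lower than without the curve on gcn4 and BY4741 replicate 1, and higher in bas1. The correlation of BY4741 replicate 1 with bas1 replicate 1 was then -0.62 and with gcn4 0.75. The length used was the coding length plus introns, which many ribosomal protein genes carry.

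Other genes of translation were read from lists of named factors. For each list the count at an unadjusted limma p under 0.05 for the mean over strains is given over the genes with a value on all 8 arrays, which alone were tested, and 0 genes of any list passed after adjustment. Of 16 tested regulators (23 measured) of ribosomal protein genes and their signalling pathways, 2 had a positive mean and 0 a negative mean at that threshold. RAS1, a small GTPase of the protein kinase A pathway, stood at 0.35 and -0.28 in bas1, 0.13 and 0.66 in bas2, 1.04 in gcn4, 1.16 in shm2, and 0.54 and 0.054 in BY4741. SFP1, an activator of ribosomal protein genes, stood at 0.97 and 1.00 in bas1, 0.64 and 0.60 in bas2, -0.68 in gcn4, 0.81 in shm2, and -1.12 and 0.31 in BY4741. HMO1, a chromatin protein bound at their promoters, stood at 0.98 and 0.33 in bas1, 0.52 and 0.38 in bas2, 0.79 in gcn4, -0.17 in shm2, and 0.62 and 0.15 in BY4741. HMO1 was above 0 on 7 arrays, and SFP1 was below 0 on gcn4 and BY4741 replicate 1, where the ribosomal protein median was highest. BCY1, the regulatory subunit of protein kinase A, had the lowest mean of the list and rested on a ratio of -5.60 on bas2 replicate 2.

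Of 7 tested chaperones and escorts (13 measured) dedicated to ribosomal proteins or their assembly, 1 had a positive mean at an unadjusted p under 0.05 and 0 a negative. Their list median was -0.50 and -0.97 in bas1, 0.22 and 0.24 in bas2, 0.87 in gcn4, 0.56 in shm2, and 0.85 and 0.019 in BY4741. On bas1 replicate 2 only 8 of them had a value. YAR1, which escorts Rps3, stood at -0.72 and -1.02 in bas1, 0.26 and 0.25 in bas2, 1.48 in gcn4, -0.17 in shm2, and 2.31 and 0.14 in BY4741. SQT1, which loads Rpl10, stood at 0.20 and 0.0026 in bas1, 0.19 and -0.057 in bas2, -0.92 in gcn4, 3.47 in shm2, and 0.13 and -0.19 in BY4741. ACL4, the chaperone of Rpl4, stood at -0.096 and -3.23 in bas1, 0.35 and 0.20 in bas2, 0.087 in gcn4, 0.99 in shm2, and 0.46 and -0.0041 in BY4741. SQT1 was the high member in shm2 and YAR1 on gcn4 and BY4741 replicate 1.

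Of 14 tested elongation and termination factors (15 measured), 2 had a positive and 1 a negative mean at an unadjusted p under 0.05. Their median was 0.50 and 0.95 in bas1, 0.0024 and 0.58 in bas2, -0.086 in gcn4, 0.34 in shm2, and -0.65 and 0.14 in BY4741. The median of this list was thus above 0 in bas1. On BY4741 replicate 1 it was the centred value of a ratio of 1, so its sign there comes from centring. TEF4, a subunit of elongation factor 1B, stood at 1.75 and 1.76 in bas1, 0.95 and 1.01 in bas2, -0.086 in gcn4, 0.98 in shm2, and -1.60 and 0.31 in BY4741. YEF3, the elongation factor found in fungi, stood at 0.27 and 1.84 in bas1, -0.14 and 0.97 in bas2, -0.91 in gcn4, 0.47 in shm2, and -1.46 and -0.12 in BY4741. EFB1, the exchange factor of elongation factor 1, stood at 0.79 and 0.40 in bas1, -0.011 and 0.40 in bas2, 0.96 in gcn4, 0.53 in shm2, and 0.79 and 0.35 in BY4741, above 0 on 7 arrays.

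Of 23 tested initiation factors (27 measured), 7 had a positive and 0 a negative mean at an unadjusted p under 0.05, and of 12 tested ribosome-bound factors and chaperones of new proteins (13 measured) 4 and 0. CDC33, the cap-binding protein, stood at 0.79 and -0.10 in bas1, 0.14 and 0.55 in bas2, 2.04 in gcn4, 0.72 in shm2, and 2.33 and 0.41 in BY4741. TIF2, an RNA helicase of initiation, stood at 0.79 and 1.11 in bas1, 1.77 and 0.84 in bas2, 0.26 in gcn4, 1.42 in shm2, and 0.28 and 0.56 in BY4741, above 0 on all 8 arrays. SSB2, a chaperone on the ribosome, stood at 0.79 and 1.64 in bas1, 0.59 and 0.97 in bas2, 0.26 in gcn4, 0.98 in shm2, and -0.73 and 0.12 in BY4741, and EGD2, of the complex that shields new peptides, at -0.027 and -0.63 in bas1, 0.42 and 0.49 in bas2, 0.96 in gcn4, 0.64 in shm2, and 1.60 and 0.23 in BY4741. On BY4741 replicate 1 SSB2 was thus below 0, as TEF4 and YEF3 were, and EGD2 above 0. The 0.26 of TIF2 and of SSB2 on gcn4 is the centred value of a ratio of 1, so its sign there comes from centring. The 0.79 of CDC33, TIF2 and SSB2 on bas1 replicate 1 and the 0.59 of SSB2 on bas2 replicate 1 lay at the second pile.

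For comparison, 98 measured ribosome biogenesis genes had a median of -0.19 and -0.30 in bas1, 0.15 and 0.21 in bas2, 0.26 in gcn4, 0.18 in shm2, and 0.68 and -0.032 in BY4741, with 12 positive and 4 negative means among 67 tested at an unadjusted p under 0.05. The 65 measured mitochondrial ribosomal protein genes had medians of -0.63 and -0.63 in bas1, -0.40 and -0.31 in bas2, 0.87 in gcn4, -0.26 in shm2, and 0.52 and 0.050 in BY4741, with 0 positive and 2 negative means among 31 tested. Mitochondrial and cytosolic ribosomal protein genes were both above 0 on gcn4 and BY4741. On bas2 replicate 2 and shm2 the mitochondrial list was below 0 and the cytosolic one above. On bas2 replicate 1 the mitochondrial list was below 0 and the cytosolic one close to it, at 0.031. Over all genes, 363 positive and 158 negative means of 3168 passed the unadjusted threshold.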

How the data were processed

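The deposited values were log2 ratios of the 2 channels of a spotted array, 1 value per spot and array. Slides were read and spots quantified with GenePix hardware and software, per the labels. Which channel held the glycine culture, the dyes, background handling and normalization were not given in the sources, and 2 to the power of a value was a multiple of 0.001, within 1e-05, for 98.4% to 100.0% of the spots of an array. Of 12800 spots, 11138 had 1 gene symbol and 1662 had none, and 11128 were matched by gene identifier to RefSeq names. Every column of values was matched to a sample by its accession, with 0 left unmatched.

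Spots of a gene were averaged and each array was centred on its gene median. limma 3.58.1 (R 4.3.3) fitted 5 strain means over the 8 arrays and their differences, with at most 3 residual degrees of freedom and a prior of 2.30 (SD 0.545), in all genes valued throughout the groups compared. Adjustment was by Benjamini-Hochberg, at a threshold of 0.05. Strains with 1 array (gcn4, shm2) borrow the spread of the others. The labels do not say whether replicates are separate cultures, so p-values measure only the spread between these arrays. Spots within 0.003 of a ratio of 1 were counted with a tolerance on the ratio itself. Tables were handled with Python 3.11.15 and pandas 2.3.3, and the length curve is a lowess fit (fraction 0.3) with statsmodels 0.14.6. The fit was tested on simulated data.

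The members and the lists were chosen with earlier results of these data known. Genes were named by a rule: stalk genes, a fixed set of genes with special roles, the 5 highest and 5 lowest means per subunit, up to 3 highest and lowest per strain, difference or list of other translation genes, and the 5 most and 5 least different A and B pairs. Alternatives changed the centring, scaling, piles, spot number, length, sign of bas1, blocks and arrays used. Grouping of A and B copies by protein identity was not run, because no protein sequences were used here.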

Additional observations from a re-analysis of the deposited data

Results flagged for a closer look

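Among the members named by the rule, some had every array of 1 strain above 0 and every array of another below 0. limma's test of the strain difference passed for none of them after Benjamini-Hochberg adjustment. Other members that were not named share the pattern: it held for 39 of 129 members for bas1 minus BY4741 (10.1% of all genes), 16 of 129 for bas1 minus bas2 (5.43%) and 1 of 132 for bas2 minus BY4741 (6.61%), and the genes given below are 14, 6 and 1 of these. In each bas1 case below, both bas1 arrays were below 0, so with the bas1 sign turned the strains no longer lie on opposite sides. For RPL25, RPL37A, RPL43A and RPS25B the value on bas1 replicate 1 was a ratio of 1, which is below 0 through centring alone. RPL20B, RPL33B and RPL34A stood at -0.20, -0.040 and -0.16 on that array, where a ratio of 1 reads -0.22. They too were below 0 there through centring alone. Without spots at a ratio of 1 the pattern held for 25 of 100 members for bas1 minus BY4741 and 9 of 91 for bas1 minus bas2. These counts keep genes that lay between a ratio of 1 and the middle gene.

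For bas1 minus BY4741 the named small subunit genes were RPS30B at -3.02, RPS10A at -2.54, RPS10B at -2.45, RPS18A at -1.73 and RPS25B at -0.96. Both copies of RPS10 are thus among them. In BY4741 RPS30B, RPS10A and RPS10B stood at 3.68, 3.09 and 2.76 on replicate 1 and at 0.070, 0.15 and 0.34 on replicate 3. The named large subunit genes were RPL35B at -1.91, RPL35A at -1.88, RPL38 at -1.73, RPL34A at -1.66, RPL20B at -1.55, RPL25 at -1.34, RPL33B at -1.15, RPL37A at -0.92 and RPL43A at -0.85. RPL25 and RPL35 lie together at the exit of the peptide tunnel.

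For bas1 minus bas2 the named genes were RPS18A at -1.38, RPL38 at -1.35, RPL34A at -0.90, RPL25 at -0.86, RPL43A at -0.51 and RPL33B at -0.25. All 6 are also among those for bas1 minus BY4741, a comparison that shares the bas1 arrays. For bas2 minus BY4741 RPS30A stood at -0.59, with both bas2 arrays below 0 and both BY4741 arrays above. On bas2 replicate 1 it stood at -0.26, where a deposited ratio of 1 reads -0.41, so it was below 0 there through centring alone.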

How the results depend on the processing

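With 1 or 2 arrays a strain and log2 ratios whose direction and background handling are unknown, few of these values can be called, and 0 member calls were made in 206 fits of limma over comparisons and settings. Of 195 alternative counts of called genes 183 stayed close to the main count, and of 173 alternative medians 162 moved by less than the spread between replicates. Some of these medians could not move: turning bas1 leaves the other strains as they were, and a change of centring cancels in large minus small and in A minus B. For gcn4 and shm2 the spread was pooled from the replicated strains. Leaving out 1 array was judged against the spread of the same 2 arrays. The 162 thus do not show how stable the medians are. The bas1 member median (0.049) was -0.23 without centring, 0.22 with the length curve removed and -0.049 with the bas1 sign turned, and from -0.044 to 0.083 when 1 bas1 array was left out. Large minus small was -0.13 in bas1 and -0.082 in bas2 without both piles (0.062 and -0.042 with them). The A minus B median was -0.082 in bas2 at a common spread (-0.053 as deposited), -0.14 and -0.15 in gcn4 without the first pile and without both (-0.023 with them), -0.031 in bas1 turned (0.031 as deposited), and from -0.048 to 0.011 in BY4741 with 1 array left out. Genes called by limma, 0 in the main fits, were 2 for the mean over strains with 2 valued spots required and 2 without centring, where bas1 had 1 and gcn4 had 13. They were 2 for bas1 minus bas2 with bas1 turned, and 2 for BY4741 and 21 for gcn4 minus BY4741 from their own arrays only. Leaving out 1 replicate gave 0 to 641 in bas1, 0 to 493 for bas1 minus BY4741, 0 to 158 for bas1 minus bas2 and 0 to 4 in gcn4, the highest without bas1 replicate 1. Without bas1 replicate 2 gcn4 also had 4. The cause of these changes was not tested. With the replicate block the member median over strains was 0.56 and 73 members, in place of 68, had an unadjusted p under 0.05. The numbers pair only bas1 with bas2 (r = 0.54 between their deviations over 3260 genes), which 2 pairs cannot settle. The count of 68 was 33 without bas2 replicate 2, 42 without BY4741 replicate 1 and 82 without BY4741 replicate 3.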
